A study of Rattus norvegicus with 9 samples.

Results

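Gstm3 was 1 of 10 glutathione transferase genes taken from the rat gene table by symbol, together with the mu-class genes Gstm1, Gstm2, Gstm5 and Gstm7 and with Gsta4, Gstp1, Gstt1, Gsto1 and Gstk1 of other classes. The table listed 34092 genes, and 9 of the 10 symbols had a row. Gstm7 had no row, Gstm5 was listed at 0 in all 9 libraries, and the remaining 8 genes passed the filter for testing, a mean of at least 0.5 FPKM over the 9 libraries, as did 15958 genes in all. FPKM is the number of fragments per kilobase of gene length, scaled for the depth of the library. Gstm3 was chosen by its measured values, being higher than in vehicle cultures after either peptide, so its values are given as a description without a test. The 7 tested relatives were chosen by family name, with earlier results of these data known.

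The libraries came from primary hippocampal neurons of wild-type rat fetuses at embryonic day 17, grown in neurobasal medium with B27 supplement. At 7 days in vitro the neurons received vehicle (Control), 1 nM human NPCT (aminoprocalcitonin, a peptide cut from procalcitonin) or 1 nM human PCT (procalcitonin, the parent peptide), and RNA was taken after 24 h. Each group had 3 libraries. The methods state that RNA was drawn from pooled biological triplicates while the labels number 3 replicates, so the spread between libraries may be partly technical. Between 13573056 and 17211642 fragments were assigned to genes per library. Neuronal markers summed to between 2288 and 2367 FPKM in Control, 2165 and 2230 with NPCT and 2261 and 2473 with PCT. None of the 13 was called in any comparison by limma or limma-voom. Limma called 0.219, 2.31 and 5.76% of all genes tested for NPCT, PCT and NPCT against PCT. At an unadjusted p under 0.05 there were 8, 3 and 11 of the 13 in these comparisons. Of all genes tested 29.3, 18.9 and 33.1% were. The median log2 fold changes of the 13 were -0.21, -0.05 and -0.24 in these comparisons. Gfap of astrocytes averaged 776 FPKM in Control, so the cultures also held glial transcripts. PCT replicate 3 stood furthest from its group, with a chi-square per degree of freedom of 18.9 and 21.6 against the other PCT libraries, which had 6.38 between them. NPCT replicate 3 also stood apart, with 10.6 and 10.8 against the other NPCT libraries, which had 4.38 between them, and it held the highest NPCT values of Gsta4, Gstm1, Hpgds and Hmox1.

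Glutathione transferases join glutathione to reactive electrophiles, such as drug metabolites and products of lipid peroxidation, which makes them soluble and ready for export. The cytosolic enzymes are dimers and fall into classes named by Greek letters, each with its own substrates, and the kappa class lies in mitochondria and peroxisomes. In the brain astrocytes are rich in these enzymes and supply neurons with precursors of glutathione.

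Gstm3 encodes a mu-class subunit. In the table it was ENSRNOG00000049743, on chromosome 2 from 210685197 to 210688272 of the plus strand (Rnor_6.0). In Control, Gstm3 measured 0.476, 0.280 and 0.288 FPKM in replicates 1 to 3, which came from 7, 4 and 4 fragments. After NPCT it measured 2.02, 1.24 and 1.82 FPKM from 27, 17 and 27 fragments. After PCT it measured 15.5, 31.6 and 37.1 FPKM from 220, 431 and 624 fragments. Every NPCT library was above every Control library, and every PCT library was above every NPCT library. Among the PCT libraries replicate 1 was at less than 16 FPKM and the others were at more than 31 FPKM. The mean and SD of the 3 libraries were 0.348 ± 0.111 FPKM in Control, 1.69 ± 0.406 FPKM after NPCT and 28.1 ± 11.3 FPKM after PCT.

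The 15 control fragments limited how well the size of the difference could be given. From fragments pooled within groups, the level with NPCT was 4.83 times the control level, with a 95% interval from 2.74 to 9.09, and the level with PCT was 81.6 times the control level, with an interval from 49.3 to 146. The level with PCT was 16.9 times that with NPCT, with an interval from 13.3 to 21.7. These intervals are exact for counting error only and leave out the spread between libraries. Gstm3 was chosen by these same values, so the intervals describe counting precision and are no test of a difference. The fitted log2 fold changes were 2.00 for NPCT and 5.91 for PCT against Control, on the scale of log2(FPKM + 0.1), which understates the change of a gene this low.

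**Figure D1:**
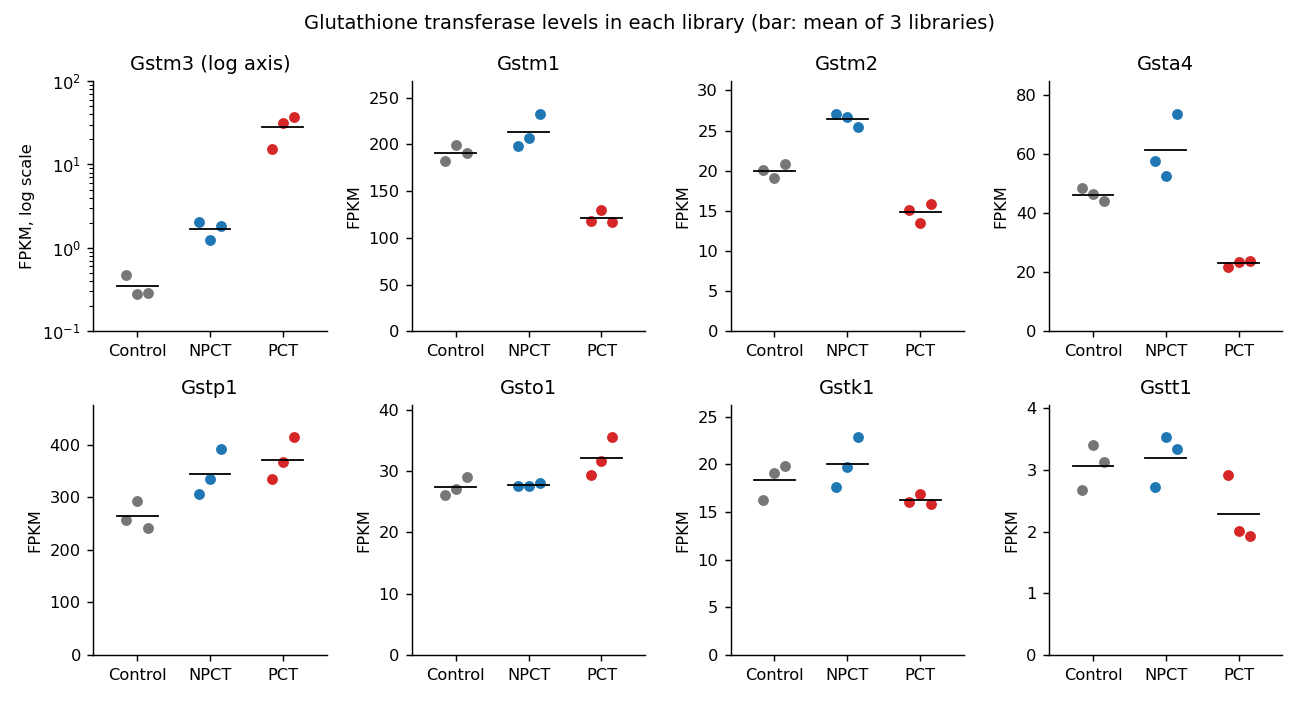
FPKM of the 8 measured members in each library, with replicates 1 to 3 from left to right within a group and the horizontal bar at the group mean; the axis of Gstm3 is logarithmic and the others start at 0. Gstm3 went from 0.348 FPKM in Control to 28.1 FPKM with PCT, while Gstm1, Gstm2 and Gsta4 were lower with PCT than in any Control library.

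Gstm3 remained a minor part of the mu class in Control and with NPCT. The levels of all mu-class rows of the table (Gstm1 to Gstm6, Gstm3l and Gstm6l, where listed) summed to between 214 and 228 FPKM in the Control libraries, 239 and 272 with NPCT and 156 and 183 with PCT. Gstm3 made up 0.159 ± 0.0553% of that sum in Control, 0.672 ± 0.171% with NPCT and 15.9 ± 5.41% with PCT (SD, n = 3). The share in single PCT libraries was 9.89, 17.3 and 20.4%. Gstm1 was between 382 and 711 times as high as Gstm3 in the Control libraries and between 3.15 and 7.63 times as high in the PCT libraries, per length of gene. With PCT the summed level of the class was below that of Control in every library, although Gstm3 had its highest values there.

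Ordered by mean level per length, the members ran in Control from Gstp1 and Gstm1 through Gsta4, Gsto1, Gstm2, Gstk1 and Gstt1 to Gstm3 in place 8. Neighbours in that order did not overlap between libraries, except Gstm2 and Gstk1. With NPCT the order was the same, and no neighbours overlapped. With PCT the mean of Gstm3 was in place 4, but its place in single libraries was 6, 4 and 3, and its libraries overlapped those of Gsto1, Gsta4, Gstk1 and Gstm2. Gstk1 and Gstm2 also overlapped each other.

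The place of Gstm3 in the genome bears on what its row counts. In the table it lay between Eps8l3 and Gstm6l, both listed at 0 in all 9 libraries, and it was the only mu-class gene on the plus strand of that stretch. Gstm2, Gstm1 and Gstm4 followed on the minus strand, Gstm1 119 kb and Gstm4 149 kb from the start of Gstm3. The model of Gstm2 (ENSRNOG00000018937, 210720704 to 210782856) spanned 62153 bases and enclosed the rows of Gstm6, AC097845.1 and Gstm3l on the same strand, so fragments of these genes can be hard to assign. Those 3 rows held at most 9 fragments in any library. In RefSeq on the newer build GRCr8, the gene between Eps8l3 and Gstm6l on the plus strand is named Gstm5, with Gstm3 as a synonym that the minus-strand Gstm7 also carries, and a gene named Gstm3 lies on the minus strand next to Gstm2. By its neighbours and strand, the row named Gstm3 in the table holds the place of the gene that RefSeq calls Gstm5; the sequences of both models were not compared. The row named Gstm5 in the table (ENSRNOG00000058357) was on the unplaced scaffold KL568438.1 from 52897 to 55984, with a model of 970 bases beside 958 for Gstm3, and lay next to a second row of Eps8l3. It was listed at 0 throughout. If the scaffold holds a near-identical copy, fragments that fit both may have been dropped or given to either one, which was not tested.

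**Figure D2:**
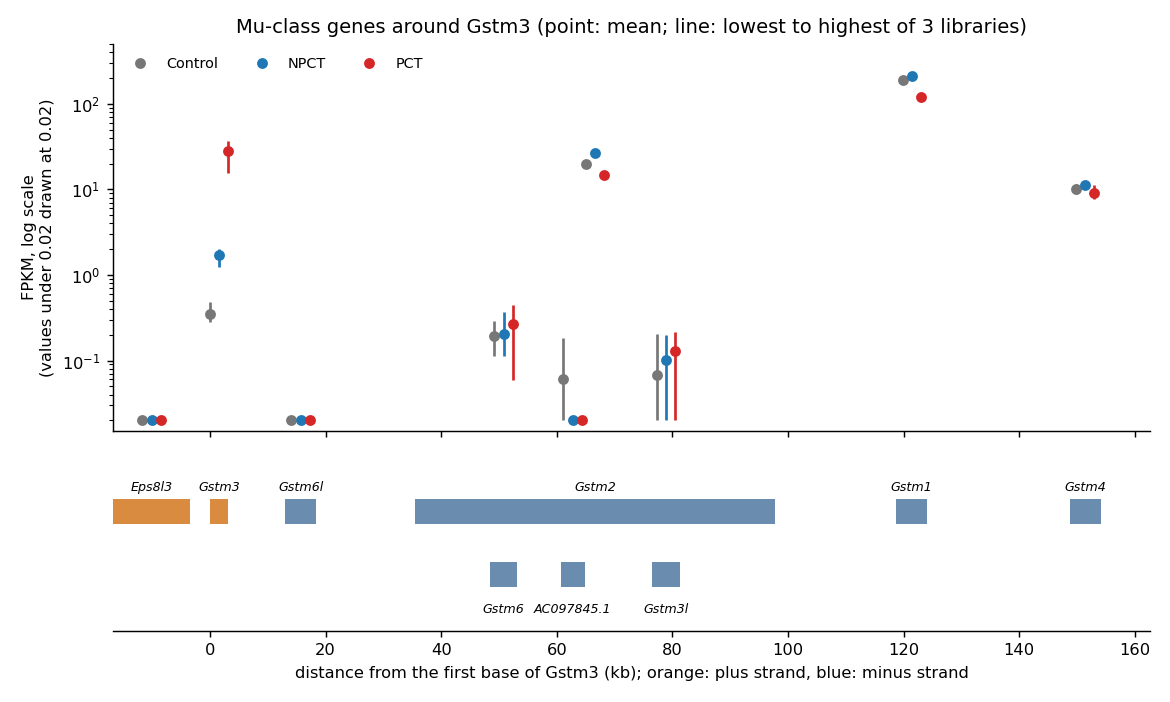
Mean FPKM (points, log axis) and lowest to highest library (lines) of the genes around Gstm3 on chromosome 2, above a map of their positions in kb from the first base of Gstm3; values under 0.02 FPKM are drawn at 0.02. Gstm3 was at 0.348, 1.69 and 28.1 FPKM in Control, NPCT and PCT, while the adjoining Eps8l3 and Gstm6l were listed at 0.

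The RefSeq promoter windows are shown for the genes on which these results turn: the gene at the place of the Gstm3 row, the gene RefSeq itself names Gstm3, Gstp1 as the most abundant member, and Gsta4 as the member with the largest decrease. Each is the 250 bases before the annotated start, 5′ to 3′ on the strand of the gene, from RefSeq (GRCr8). The windows lie at chr2:198219519-198219768 (plus), chr2:198300668-198300917 (minus), chr1:210769706-210769955 (minus) and chr8:87947015-87947264 (plus). Capitals mark matches on either strand to TGACNNNGC, the core of the antioxidant response element bound by Nrf2, or to TGANTCA, the motif of AP-1 factors.
RefSeq Gstm5, the place of the Gstm3 row: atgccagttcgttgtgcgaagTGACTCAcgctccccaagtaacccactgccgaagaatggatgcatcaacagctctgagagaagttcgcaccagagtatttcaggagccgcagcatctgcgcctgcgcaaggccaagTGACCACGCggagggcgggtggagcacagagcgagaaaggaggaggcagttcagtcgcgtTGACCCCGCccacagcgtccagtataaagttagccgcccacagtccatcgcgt
RefSeq Gstm3, minus strand: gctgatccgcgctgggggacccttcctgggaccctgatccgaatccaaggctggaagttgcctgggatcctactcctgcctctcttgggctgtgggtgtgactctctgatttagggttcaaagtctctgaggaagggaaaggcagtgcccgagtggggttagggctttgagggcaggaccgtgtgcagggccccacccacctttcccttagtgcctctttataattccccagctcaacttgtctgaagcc
Gstp1: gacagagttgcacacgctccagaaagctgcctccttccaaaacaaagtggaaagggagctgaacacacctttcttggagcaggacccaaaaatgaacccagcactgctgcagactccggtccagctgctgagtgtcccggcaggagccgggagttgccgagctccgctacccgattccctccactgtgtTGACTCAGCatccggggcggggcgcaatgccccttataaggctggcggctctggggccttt
Gsta4: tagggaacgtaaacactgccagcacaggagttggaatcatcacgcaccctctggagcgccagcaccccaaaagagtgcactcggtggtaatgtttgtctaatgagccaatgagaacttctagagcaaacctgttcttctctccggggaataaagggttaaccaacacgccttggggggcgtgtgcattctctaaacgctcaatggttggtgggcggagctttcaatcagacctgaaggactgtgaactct

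Windows were found for 9 of the 10 members by symbol, all but Gstt1. Among them Gstm7 had no measured row, and the RefSeq Gstm3 window is not at the place of the measured Gstm3 row. Of these 9 windows, 3 held TGACNNNGC, those of RefSeq Gstm5, Gstm7 and Gstp1, against 10.1% of the 33469 windows of all genes in that set. The RefSeq Gstm5 window held it at 2 places, TGACCACGC from 113 to 105 bases and TGACCCCGC from 53 to 45 bases before the start. TGANTCA was present in 2 of the 9, RefSeq Gstm5 and Gstp1, against 6.34% of all windows. In Gstp1 both motifs overlapped in TGACTCAGC, from 61 to 53 bases before the start. No match was found in the windows of Gstm1, Gstm2, Gsta4, Gsto1, Gstk1 or the minus-strand Gstm3. A match of letters is a description and does not show that a factor binds there.

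The relatives were then compared between groups with limma, and a gene was called when its p, adjusted by Benjamini-Hochberg over all genes tested, did not exceed 0.05 and its fold change exceeded 1.5. With NPCT against Control none of the 7 relatives was called, where 0.219% of all genes tested were. That share rests on 35 calls, which became 579 in a fit of the 2 groups alone and 0 to 562 with 1 library left out. At an unadjusted p under 0.05 the count was 3 of 7, where 29.3% of all genes tested were, and limma-voom on the recovered fragments also called 0. All 7 log2 fold changes were above 0, with a median of 0.16 beside 0.0062 for all genes tested, but those of Gstt1, Gsto1 and Gstk1 were below 0 (-0.09, -0.10 and -0.02) once the trend with gene length was removed. The median was then 0.04, and it was 0.10 after quantile normalization and 0.09 without NPCT replicate 3. The libraries of 3 relatives, Gstm2, Gsta4 and Gstp1, lay wholly above those of Control, and those of the other 4 overlapped, where 40.3% of all genes tested did not overlap in either direction.

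With PCT against Control 2 of the 7 relatives were called, Gsta4 and Gstm1, both lower with PCT, where 2.31% of all genes tested were called and 1.72% were called lower. These shares rest on 368 calls, which became 172, 206 and 187 without Control replicate 1, 2 or 3. The median of the 7 log2 fold changes was -0.43 beside 0.0046 for all genes tested. The libraries of 5 relatives did not overlap those of Control, 3 below and 2 above, where 24.9% of all genes tested did not overlap. With NPCT set directly against PCT, at the same dose and time, 3 relatives were called, Gsta4, Gstm1 and Gstm2, all higher with NPCT, where 5.76% of all genes tested were called and 4.38% were called higher. These shares rest on 919 calls, which became 528, 525 and 1623 without PCT replicate 1, 2 or 3. The libraries of 5 relatives did not overlap, 4 higher and 1 lower with NPCT, where 33.4% of all genes tested did not overlap. Both comparisons with vehicle share the same 3 Control libraries, and NPCT against PCT reuses the libraries of both.

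**Figure D3:**
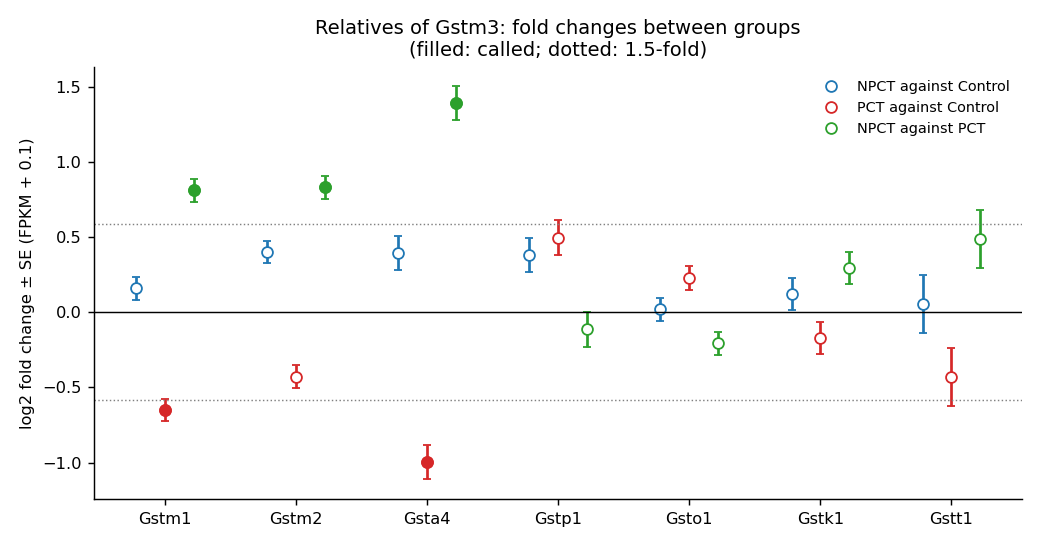
Log2 fold change of each of the 7 relatives of Gstm3 in the 3 comparisons, with the standard error of limma as bars, filled symbols for called genes and dotted lines at a fold change of 1.5. Gsta4, Gstm1 and Gstm2 were called between NPCT and PCT, with values of 1.39, 0.81 and 0.83, and no relative was called between NPCT and Control.

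Gsta4 (chromosome 8, 85497557 to 85518879) encodes the alpha-class enzyme that conjugates 4-hydroxynonenal and other aldehydes of lipid peroxidation. It measured 48.5, 46.5 and 44.0 FPKM in Control, 57.6, 52.8 and 73.8 with NPCT and 21.9, 23.6 and 24.0 with PCT. The 3 groups did not overlap, PCT being lowest and NPCT highest. Gsta4 fell with PCT by 1.00 on the log2 scale (SE 0.11, limma adjusted p = 0.00244). The log2 fold change with NPCT was 0.39 (SE 0.11) and was not called by limma, with an adjusted p of 0.0704, and it was 0.25 without NPCT replicate 3. Gsta4 was higher with NPCT than with PCT by 1.39 on the log2 scale (limma adjusted p = 4.2e-04), with a 95% interval from 1.13 to 1.64.

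Gstm1 (chromosome 2, 210803869 to 210809306, minus strand) encodes the major mu-class subunit here. It measured 182, 199 and 190 FPKM in Control, 199, 207 and 233 with NPCT and 118, 129 and 117 with PCT. The PCT libraries were all below the Control libraries, whereas those of NPCT and Control overlapped. Gstm1 fell with PCT by 0.65 on the log2 scale (SE 0.07, limma adjusted p = 0.00251), to 0.637 times the control mean. Against NPCT the difference was 0.81 in favour of NPCT (limma adjusted p = 5.5e-04), with an interval from 0.64 to 0.98.

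Gstm2, another mu-class subunit, measured 20.1, 19.0 and 20.8 FPKM in Control, 27.1, 26.7 and 25.4 with NPCT and 15.1, 13.5 and 15.9 with PCT. Its groups did not overlap either. The difference between NPCT and PCT was called, at 0.83 on the log2 scale with an interval from 0.66 to 1.00 (limma adjusted p = 5.5e-04). Against Control neither peptide gave a call. The value with PCT was -0.43 (SE 0.08), which passed the adjusted p of limma at 0.0174 but not the fold change of 1.5. The value with NPCT was 0.40 (SE 0.08), with an adjusted p of 0.0509 in limma, and was also under the fold change of 1.5. That limma adjusted p ranged from 0.00748 to 0.169 over the alternative settings. Gstm4, a mu-class gene outside the members, ranged from 8.73 to 11.5 FPKM in Control, 10.9 to 11.4 with NPCT and 7.72 to 11.1 with PCT.

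Gstp1 (chromosome 1, 219291679 to 219294147), the pi-class enzyme, had the highest level of all members in every group. It measured 256, 292 and 242 FPKM in Control, 306, 334 and 391 with NPCT and 334, 367 and 414 with PCT. Both peptide groups lay above Control and overlapped each other. The log2 fold change was 0.49 (SE 0.12) with PCT, at a limma adjusted p of 0.0485 and under the fold change of 1.5, so it was not called. With NPCT it was 0.38 (SE 0.12, limma adjusted p = 0.0761), also under the fold change of 1.5, and 0.21 with the trend with gene length removed. Over the alternative settings the limma adjusted p ranged from 0.0351 to 0.2 with NPCT and from 0.0213 to 0.172 with PCT. The difference between NPCT and PCT was -0.11 on the log2 scale, with an interval from -0.37 to 0.15.

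Gsto1 (chromosome 1, 267607418 to 267617387), the omega-class enzyme with thioltransferase activity, overlapped the row of Gsto2 on the same strand. It measured 26.2, 27.1 and 29.1 FPKM in Control, 27.5, 27.7 and 28.1 with NPCT and 29.3, 31.7 and 35.5 with PCT. The PCT libraries were above the others, but the log2 fold change of 0.23 was not called (limma adjusted p = 0.148). Between NPCT and PCT it was -0.21, with an interval from -0.38 to -0.03 that is not adjusted for the number of genes, and -0.14 without PCT replicate 3.

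Gstk1 (chromosome 4, 71621729 to 71626107), the kappa-class enzyme, measured 16.2, 19.1 and 19.8 FPKM in Control, 17.6, 19.8 and 22.8 with NPCT and 16.1, 16.8 and 15.9 with PCT. Control overlapped both peptide groups. The log2 fold change was 0.12 with NPCT, with an interval from -0.12 to 0.37, and -0.17 with PCT, with an interval from -0.41 to 0.07 (-0.26 without Control replicate 1). All NPCT libraries of Gstk1 were above all PCT libraries, by 0.29 on the log2 scale with an interval from 0.05 to 0.54. That difference was not called (limma adjusted p = 0.0957). Gstt1 (chromosome 20, 13799102 to 13816526), of the theta class, was the lowest relative. It measured 2.68, 3.40 and 3.13 FPKM in Control, 2.72, 3.53 and 3.35 with NPCT and 2.92, 2.00 and 1.92 with PCT, from 27 to 49 fragments per library. The log2 fold change with PCT was -0.43 (SE 0.19, limma adjusted p = 0.264), with PCT replicate 1 inside the range of Control. Between NPCT and PCT it was 0.49, with an interval from 0.05 to 0.92, and was not called (limma adjusted p = 0.114).

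Over the 9 libraries, the genes whose log2 level followed that of Gstm3 most closely were Zfp36, Ubac1, Nop16, Eef1b2 and Adsl, with Pearson's r between 0.980 and 0.994 among 14976 genes with a symbol. Zfp36, which encodes a protein that speeds the decay of cytokine mRNAs, was at 4.17, 4.15 and 3.93 FPKM in Control, 5.09, 5.08 and 5.15 with NPCT and 6.77, 7.26 and 7.49 with PCT. Its range was far narrower than that of Gstm3. Of the relatives Gsto1 had an r of 0.82 and Gstp1 of 0.77 with Gstm3, and the others were negative, from -0.54 for Gstk1 to -0.84 for Gstm1. These correlations describe libraries that fall into 3 groups and carry no test.

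Further glutathione genes were read from lists of the pathway. Of 19 other glutathione transferases 17 had a row and 10 were tested. With PCT 4 of the 10 were called, all lower, where 1.72% of all genes tested were called lower, and the median log2 fold change was -0.50, while with NPCT 0 were called by limma or limma-voom, where limma called 0.219% of all genes tested, and 1 had an unadjusted p under 0.05, where 29.3% of all did. Hpgds, the sigma-class enzyme that makes prostaglandin D2, measured 2.45, 3.09 and 4.59 FPKM in Control, 2.62, 2.50 and 6.84 with NPCT and 0.172, 0.420 and 0.340 with PCT. It fell with PCT by 3.08 on the log2 scale (SE 0.43, limma adjusted p = 0.00597), and all PCT libraries were below all Control libraries. The PCT libraries held 3 to 7 fragments of Hpgds, and with a pseudocount of 1 the log2 fold change was -1.71. Gstt3 of the theta class fell from 16.8 ± 1.23 to 9.76 ± 0.744 FPKM with PCT (SD, n = 3, limma adjusted p = 0.00164). Mgst1, a membrane-bound transferase, and Gsta6 of the alpha class had log2 fold changes of -0.68 and -0.64 with PCT (limma adjusted p = 0.0297 and 0.0141). Both calls were lost without any 1 Control library, and that of Mgst1 also without NPCT replicate 2, PCT replicate 1 or PCT replicate 3, and with the replicate number as a block (limma adjusted p = 0.0618). Gstt3, Hpgds and Mgst1 were also called between NPCT and PCT, higher with NPCT, where 4.38% of all genes tested were called higher.

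Of the genes for making and reducing glutathione 13 were tested, and 3 were called with PCT, where 2.31% of all genes tested were. With NPCT 0 were called by limma or limma-voom, where limma called 0.219% of all genes tested. There 4 of the 13 had an unadjusted p under 0.05, where 29.3% of all genes tested did. Slc7a11, the cystine carrier that feeds glutathione synthesis, was at 99.7, 94.3 and 84.6 FPKM in Control, 67.6, 85.1 and 70.7 with NPCT and 42.9, 39.4 and 35.3 with PCT. It fell with PCT by 1.24 on the log2 scale (SE 0.11, limma adjusted p = 5.9e-04). Cbs, which starts the route from homocysteine to cysteine, fell from 9.77 to 6.45 FPKM, and Gss, which completes glutathione, rose from 8.52 to 12.9 FPKM (limma adjusted p = 0.00384 and 0.00925). Both lay close to the fold change threshold, and Gss lost its call in 7 alternative settings and Cbs in 3. Between NPCT and PCT Slc7a11, Cbs and Oplah were called higher with NPCT, where 4.38% of all genes tested were.

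Of 9 tested glutathione peroxidases and glutaredoxins none was called against Control by limma or limma-voom, where 0.219% of all genes tested were called with NPCT and 2.31% with PCT. At an unadjusted p under 0.05 there were 5 for NPCT and 4 for PCT, where 29.3 and 18.9% of all genes tested were. Prdx6, a peroxiredoxin that uses glutathione, was called higher with NPCT than with PCT by 0.71 on the log2 scale (limma adjusted p = 5.4e-04). It was the 1 gene of the 9 called there, where 4.38% of all genes tested were called higher with NPCT. In that comparison 4 of the 9 had an unadjusted p under 0.05, where 33.1% of all genes tested did. Of 9 tested genes for the export and processing of conjugates 1 was called, Acy3, which was lower with PCT by a log2 fold change of -0.65 (limma adjusted p = 0.00597), where 1.72% of all genes tested were called lower. Of 16 tested genes of the Nrf2 pathway none was called in any comparison by limma. Of all genes tested 0.219, 2.31 and 5.76% were called for NPCT, PCT and NPCT against PCT. At an unadjusted p under 0.05 there were 8, 4 and 5 of the 16, where 29.3, 18.9 and 33.1% of all genes tested were. By limma-voom 1 was called with each peptide against Control, where it called 354 genes with NPCT and 387 with PCT of the 15958. Hmox1, the inducible heme oxygenase, was at 60.7, 59.3 and 60.8 FPKM in Control, 78.8, 77.2 and 137 with NPCT and 60.8, 78.9 and 73.2 with PCT. Its log2 fold change with NPCT was 0.64 (SE 0.20, limma adjusted p = 0.0811), and NPCT replicate 3 was far above the other libraries. Without NPCT replicate 3 the value was 0.37.

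**Figure D4:**
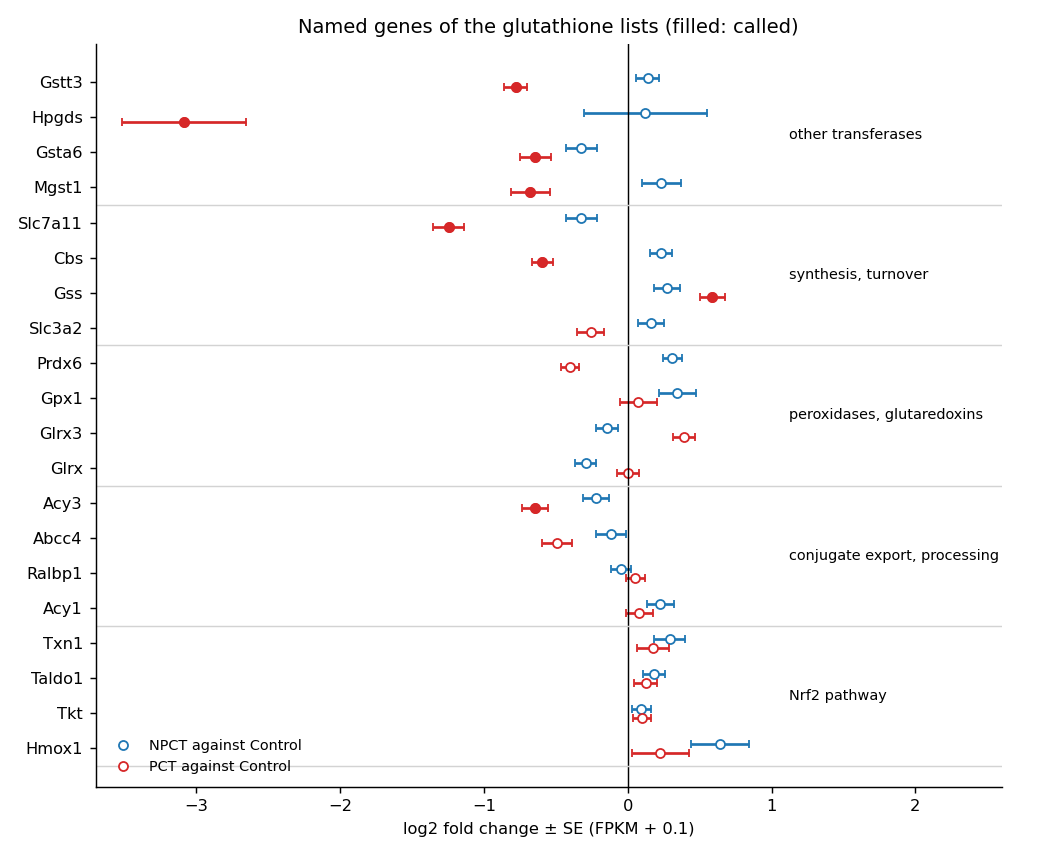
Log2 fold change against Control, with the standard error of limma as bars, of the genes named from each of the 5 glutathione lists; filled symbols are called. With PCT 8 named genes were called, 7 lower and Gss higher, and with NPCT none was called.

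Some markers of astrocytes and microglia were called lower with PCT. Of 9 tested astrocyte markers 4 were called lower with PCT, where 1.72% of all genes tested were. They were Aldh1l1, Aqp4, S100b and Slc1a2, with log2 fold changes from -0.60 to -0.83, and 0 were called with NPCT by limma or limma-voom, where limma called 0.219% of all genes tested. With NPCT 3 of the 9 had an unadjusted p under 0.05, where 29.3% of all genes tested did. The summed astrocyte level was between 2161 and 2348 FPKM in Control, 2091 and 2400 with NPCT and 1964 and 2036 with PCT, and Gfap, with 776, 843 and 919 FPKM, was not called. Of 11 tested microglia markers Aif1, Csf1r, Cx3cr1 and Tyrobp were called lower with PCT by limma, where 1.72% of all genes tested were. By limma-voom 1 of the 11 was called with PCT, where it called 387 of the 15958 genes. With NPCT against Control 0 were called by limma or limma-voom, where limma called 0.219% of all genes tested. Their median log2 fold change was 0.58, and 1 had an unadjusted p under 0.05, where 29.3% of all genes tested did. The summed microglia level was between 32.3 and 45.2 FPKM in Control, 42.9 and 198 with NPCT and 15.6 and 20.1 with PCT. The lowest NPCT library thus lay within the range of Control. Between NPCT and PCT 7 of the 11 microglia markers were called higher with NPCT by limma, where 4.38% of all genes tested were. They were Aif1, C1qa, C1qb, Csf1r, Cx3cr1, Tmem119 and Tyrobp. By limma-voom 6 of the 11 were called, where it called 939 of the 15958 genes in either direction. The median log2 fold change was 2.13 over the 11. Of the 9 astrocyte markers Aldh1l1 and S100b were called higher with NPCT than with PCT by limma, where 4.38% of all genes tested were. The median was 0.42 over the 9, and limma-voom called 2 of them. No oligodendrocyte marker of 9 was called by limma or limma-voom. Limma called 0.219, 2.31 and 5.76% of all genes tested for NPCT, PCT and NPCT against PCT. At an unadjusted p under 0.05 there were 4, 2 and 3 of the 9, where 29.3, 18.9 and 33.1% of all genes tested were. Their sum was between 409 and 427 FPKM in Control, 439 and 455 with NPCT and 354 and 368 with PCT, and Olig1 had a log2 fold change of -0.51 with PCT that passed the adjusted p of limma at 0.00161 but not the fold change of 1.5. Of 5 fibroblast markers Col3a1 was called, higher with PCT, where 2.31% of all genes tested were called and 94 of the 15958 were called higher. Col3a1 was also called lower with NPCT than with PCT, where 220 of the 15958 genes were. In that comparison limma-voom called 2 of the 5, where it called 939 of the 15958 genes. None of the astrocyte, microglia or neuron markers was at 0 in every library of a group, whereas Cldn5 of endothelium was at 0 in all 9 libraries. In these bulk samples fewer cells of a type and less RNA per cell cannot be told apart, and the part of glia in the values of Gsta4, Gstm1, Gstm3 and Hpgds was not tested.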

How the data were processed

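RNA was measured in 9 libraries of rat hippocampal neurons, 3 per group, with poly-T selected mRNA read on an Illumina NovaSeq instrument. The authors aligned reads with HISAT2 2.0.5 to Rnor_6.0, counted fragments per gene with featureCounts 1.5.0-p3 and deposited FPKM, unlogged, for 34092 genes; strand use in counting is not given in the sources used here. FPKM times gene length gave whole multiples of 1 step per library in 100% of values (tolerance 0.05), which recovered the fragments per gene. The median ratio of each library to the geometric mean of the 9 was 1, so the deposited values already carried that scaling.

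The authors tested counts with another tool; here log2(FPKM + 0.1) of 15958 genes with a mean of at least 0.5 FPKM entered limma (version 3.58.1, R 4.3.3) with a mean per group over the 9 libraries, an intensity trend and Benjamini-Hochberg adjustment over all genes tested. Thresholds were an adjusted p of 0.05 and a fold change of 1.5. The scripts were tested on simulated data. Members, gene lists and marker lists were chosen with earlier results of these data known. Named genes were all members, up to 4 per pathway list (called against Control by adjusted p, then by mean level), the 5 genes most correlated with Gstm3, and the genes around it; Oplah, Gstm4 and the markers were named after their values were seen. Replicate numbers were not treated as pairs. Intervals on fragments are exact at 95% and cover counting error only. Promoter windows of 250 bases came from RefSeq (GRCr8). The alternatives were other pseudocounts (0.01 and 1), filters, scalings, a gene length correction, limma-voom, a replicate block and leaving out each library.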

Additional observations from a re-analysis of the deposited data

Results flagged for a closer look

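For 3 of the 7 tested relatives of Gstm3 the effects of the 2 peptides differed by a test of the difference itself, NPCT against PCT in limma with Benjamini-Hochberg adjustment. Gsta4 was higher with NPCT by 1.39 on the log2 scale, Gstm2 by 0.83 and Gstm1 by 0.81. In each case all 3 NPCT libraries were above all 3 PCT libraries, where 33.4% of all genes tested did not overlap in either direction. The adjusted p ranged from 7.7e-05 to 0.00903 for Gsta4, from 1.5e-04 to 0.00992 for Gstm2 and from 8.6e-05 to 0.00992 for Gstm1 over 20 alternative settings. In the same comparison 7 of 11 microglia markers and 2 of 9 astrocyte markers, Aldh1l1 and S100b, were called higher with NPCT by limma, where 5.76% of all genes tested were called and 4.38% were called higher, and their part in these differences was not tested.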

How the results depend on the processing

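The calls among the 7 relatives, 0 with NPCT, 2 with PCT and 3 between the peptides, were the same count under each of the 20 alternatives, and no called value changed sign. The small uncalled values of Gstt1 and Gsto1 with NPCT were also below 0 without Control replicate 1, and that of Gstt1 without NPCT replicate 2. Leaving out PCT replicate 1 moved the median log2 fold change of the relatives between NPCT and PCT from 0.485 to 0.668. Both medians are the value of Gstt1, which had 2.92 FPKM in PCT replicate 1 and 2.00 and 1.92 in the others. Over the libraries left out the range was 0.38 to 0.668. With a pseudocount of 1 the log2 fold changes of Gstm3 were 0.99, 4.35 and -3.36 for NPCT, PCT and NPCT against PCT, since a larger pseudocount shrinks low values. A replicate block left the relatives at 0, 2 and 3 calls; libraries of the same number correlated by -0.072 to 0.034 in their departures from group means. Under the block Mgst1 lost its call with PCT (limma adjusted p = 0.0618). Mgst1 also lost it without any 1 Control library, NPCT replicate 2, or PCT replicate 1 or 3, and Gsta6 without any 1 Control library (limma adjusted p from 0.0601 to 0.068). Cbs, Gss, Acy3 and Gsta6 fell under the fold change with a pseudocount of 1, and Cbs without Control replicate 3 (-0.58) or PCT replicate 3 (-0.55). Gss also lost its call after quantile normalization (0.58) and length correction (0.56), and without Control replicate 1 or 2 or PCT replicate 2 or 3 (0.55 to 0.57). Hmox1 was called with NPCT in limma-voom (adjusted p = 0.0486).

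Counts over all genes depended more on the settings. With NPCT limma called 35 genes, but 579 when only the 2 groups were fitted, 319 with the replicate block, 354 with limma-voom, 208 at a mean of at least 1 FPKM, 189 after quantile normalization, 122 after length correction, 9 without a filter, 0 after scaling to total fragments (an alternative chosen after seeing the data), and 0 to 562 with 1 library left out, the highest without PCT replicate 3. Between NPCT and PCT it called 919, 454 in the fit of 2 groups, 528, 525 and 1623 without PCT replicate 1, 2 or 3, and 570 without NPCT replicate 1. With PCT against Control it called 368, and 172, 206 and 187 without Control replicate 1, 2 or 3. Depth limits Gstm3 in Control, where 3 fragments correspond to between 0.204 and 0.216 FPKM.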
